A study of Mus musculus with 6 samples.

Results

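The genes that carry an interferon signal from the cell surface to the nucleus were measured in mouse mammary tumours at 12 probe sets of 9 genes. They are the receptor chains Ifnar1, Ifnar2, Ifngr1 and Ifngr2, the signal transducer Stat2 and the interferon regulatory factors Irf1, Irf2, Irf7 and Irf9. They were chosen by gene symbol, as every probe set that the platform annotation gives to exactly 1 of these genes, out of 22626 probe sets and 12393 genes in all. The 6 samples were mammary tumours of adult F1 females, each on 1 Affymetrix array. In the AKR F1 group (3 tumours) the parents were AKR/J and PyMT mice, and in the DBA F1 group (3 tumours) they were DBA/2J and PyMT mice. Both groups thus had 1 parent with the PyMT transgene, an oncogene taken from mouse polyomavirus that causes tumours of the mammary gland, and no group without it was measured. The labels name neither the promoter of the transgene nor the strain that carried it, and they give no exact age and no treatment before euthanasia under Avertin. Each sample title carries its own number, without saying whether it names an animal. Whether the tumours of a group came from different animals is not stated, so the p-values reflect only how far these samples differ, which may be technical. Replicate numbers follow the order of the samples within each cross, so equal numbers match nothing between the crosses.

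Interferons act in 2 main types. Type I interferons (alpha and beta) bind the receptor pair IFNAR1 and IFNAR2, and interferon gamma binds IFNGR1 and IFNGR2. Behind both receptors, Janus kinases phosphorylate STAT proteins. STAT2 joins IRF9 in the complex ISGF3, which binds the interferon-stimulated response element (ISRE) of antiviral genes. IRF7 amplifies type I interferon production, IRF1 activates genes downstream of interferon gamma, and IRF2 is known as a repressor at the same elements. Stat2, Irf7, Irf9 and Irf1 are themselves known interferon-induced genes, whereas the receptor chains are expressed by most cell types without induction.

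The promoter sequences of the 5 STAT and IRF genes are shown because Irf9, Irf7 and Stat2 differed most between the crosses in the measurements that follow and Irf1 and Irf2 little. They come from RefSeq on the mouse assembly GRCm38.p6, which is the strain C57BL/6J and neither AKR/J nor DBA/2J, and run from 250 bases before to 50 bases after a transcription start, 5′ to 3′. All 9 genes had at least 1 such window, 11 windows in all. Capitals mark matches to 2 patterns that were searched on both strands, the ISRE core and the GAS element. The ISRE core was taken as GAAA and GAAA separated by any 2 bases. The GAS element, which STAT dimers bind, was taken as TTC and GAA separated by any 3 bases, which reads the same on both strands.
Irf7, chr7:141266375-141266674, minus strand: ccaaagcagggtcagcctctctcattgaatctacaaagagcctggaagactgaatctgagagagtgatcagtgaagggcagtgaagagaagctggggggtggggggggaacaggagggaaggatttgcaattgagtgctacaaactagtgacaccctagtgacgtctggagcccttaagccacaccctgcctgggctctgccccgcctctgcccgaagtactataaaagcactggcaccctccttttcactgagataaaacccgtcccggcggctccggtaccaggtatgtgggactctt
Irf9, upstream window, chr14:55603735-55604034, plus strand: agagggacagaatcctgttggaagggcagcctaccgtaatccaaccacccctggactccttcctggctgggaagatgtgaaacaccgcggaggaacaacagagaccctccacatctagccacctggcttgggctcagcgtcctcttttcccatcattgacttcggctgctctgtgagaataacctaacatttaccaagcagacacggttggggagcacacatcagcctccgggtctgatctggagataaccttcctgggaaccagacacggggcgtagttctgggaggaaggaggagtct
Irf9, downstream window, chr14:55604329-55604628, plus strand: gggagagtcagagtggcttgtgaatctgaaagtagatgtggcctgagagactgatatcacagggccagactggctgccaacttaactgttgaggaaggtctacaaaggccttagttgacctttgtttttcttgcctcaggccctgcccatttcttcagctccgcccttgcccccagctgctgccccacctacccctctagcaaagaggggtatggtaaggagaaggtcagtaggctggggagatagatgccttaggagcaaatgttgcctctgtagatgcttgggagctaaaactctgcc
Stat2, chr10:128270248-128270547, plus strand: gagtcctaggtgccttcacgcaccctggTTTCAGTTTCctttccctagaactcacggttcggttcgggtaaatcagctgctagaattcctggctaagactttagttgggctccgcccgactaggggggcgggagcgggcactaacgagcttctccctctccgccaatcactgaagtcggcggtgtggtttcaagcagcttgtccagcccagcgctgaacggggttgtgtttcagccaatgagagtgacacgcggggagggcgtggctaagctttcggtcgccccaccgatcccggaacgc
Irf1, upstream window, chr11:53769764-53770063, plus strand: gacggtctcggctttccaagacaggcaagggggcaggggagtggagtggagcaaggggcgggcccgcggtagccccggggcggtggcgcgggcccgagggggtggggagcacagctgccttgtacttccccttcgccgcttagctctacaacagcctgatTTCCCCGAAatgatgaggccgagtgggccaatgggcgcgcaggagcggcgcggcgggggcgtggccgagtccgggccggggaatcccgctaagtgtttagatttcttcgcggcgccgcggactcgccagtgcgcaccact
Irf2, chr8:46739495-46739794, plus strand: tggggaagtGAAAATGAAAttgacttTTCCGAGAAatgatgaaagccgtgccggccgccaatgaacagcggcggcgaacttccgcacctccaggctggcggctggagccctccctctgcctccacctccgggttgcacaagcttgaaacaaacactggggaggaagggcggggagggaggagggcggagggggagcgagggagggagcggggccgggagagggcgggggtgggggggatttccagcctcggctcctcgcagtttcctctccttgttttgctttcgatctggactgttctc

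The ISRE core was found in 2 of the 11 windows, those of Stat2 (position -222 from the start) and Irf2 (-241), where 3.44% of 32851 windows of all genes held it. The GAS element was found in 4 of the 11 windows, those of Irf1 (-90), Irf2 (-224), Ifnar2 (-214) and Ifnar1 (-5), where 8.30% of all windows held it. No match of 1 pattern overlapped a match of the other. Irf7 and both windows of Irf9 held neither pattern within these 300 bases, nor did the further window of Irf1 and the windows of Ifngr1 and Ifngr2. A match is a description of the letters and no evidence of binding.

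The largest differences among the 9 genes lay in Irf9, Irf7 and Stat2, whose values at the brightest probe set of each were lower in every AKR F1 tumour than in every DBA F1 tumour. At the other Stat2 probe set the crosses overlapped. The difference was 2.37-fold for Irf9, 2.28-fold for Irf7 and 1.74-fold for Stat2. Irf1, Irf2 and the 4 receptor chains differed by 1.33-fold or less at their brightest probe sets. By limma with Benjamini-Hochberg adjustment over all 22626 probe sets, none of the 12 member probe sets passed an adjusted p of 0.05, where 22 probe sets passed in the whole table (0.0972%). The limma adjusted p was 0.0837 for Irf9, 0.111 for Irf7 and 0.126 for Stat2. At an unadjusted limma p under 0.05 there were 3 of the 12 member probe sets, 1 for each of these genes, all higher in DBA F1 tumours, where 26.1% of all probe sets lay under it in either direction and 13.2% with the higher values in DBA. The crosses did not overlap at 5 of the 12 member probe sets, where 39.2% of all probe sets did not. Of these 5, the higher values lay in DBA at 4 (15.8% of all probe sets) and in AKR at 1 (23.4%).

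**Figure D1:**
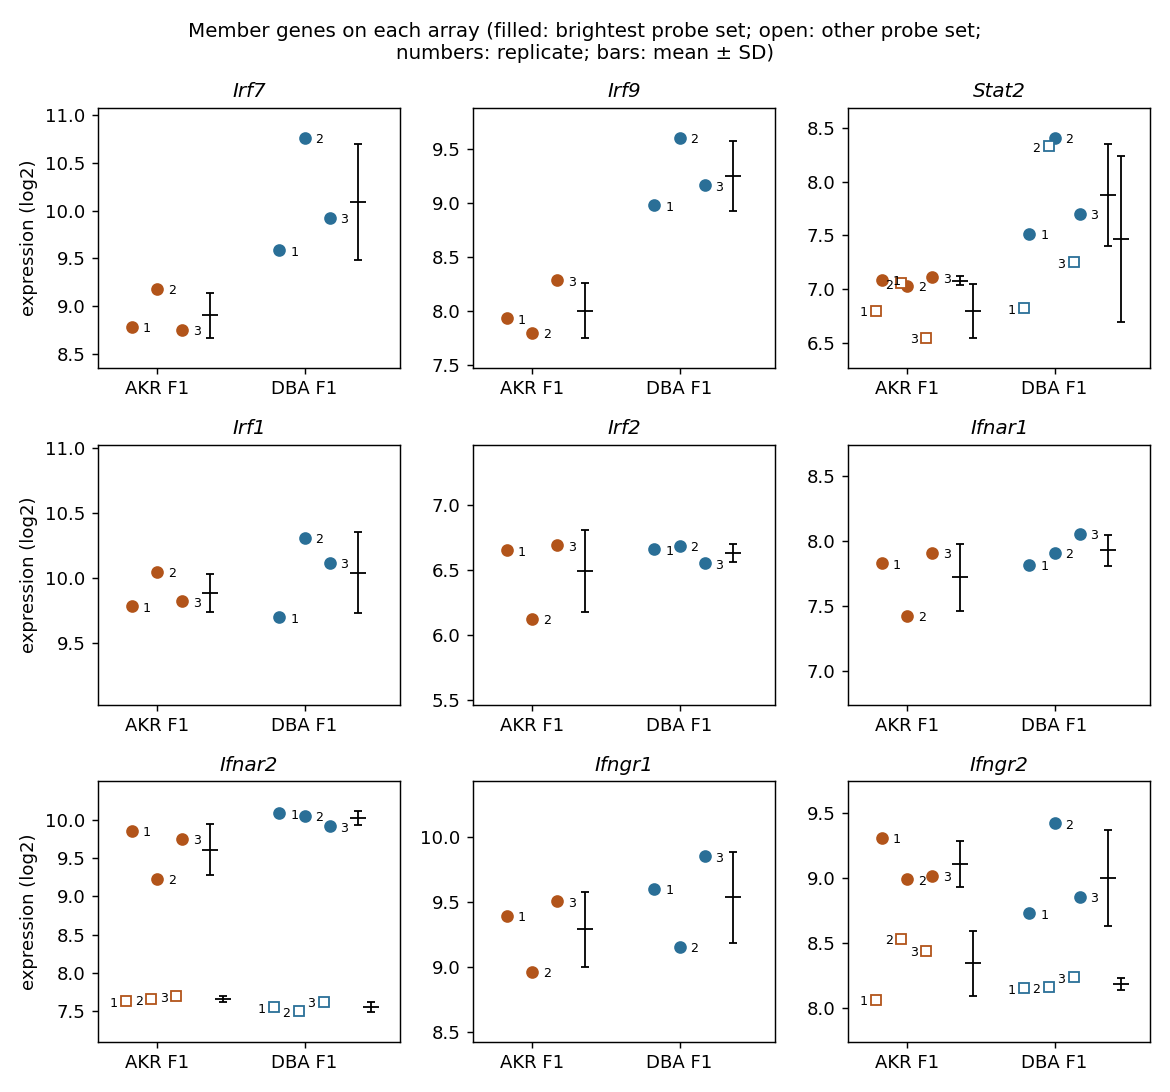
Expression (log2, vertical axes) of the 9 genes in AKR F1 tumours (orange, left) and DBA F1 tumours (blue, right), with 1 point per array, its replicate number beside it, and the mean ± SD of 3 arrays as a bar. Filled circles are the brightest probe set of a gene and open squares a further one. The crosses separate fully for Irf7, Irf9, the filled points of Stat2 and, in opposite directions, the filled and the open points of Ifnar2. The vertical scales differ between panels.

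Irf9, the DNA-binding subunit of ISGF3, read 7.93, 7.80 and 8.28 log2 units on AKR F1 arrays 1, 2 and 3, against 8.98, 9.60 and 9.16 on DBA F1 arrays 1, 2 and 3. The lowest DBA value thus lay above the highest AKR value, and the spread within each cross was smaller than the gap between the means. The AKR mean was 8.005 ± 0.252 and the DBA mean 9.247 ± 0.322 (SD, n = 3 each). The difference of AKR minus DBA was -1.24 (SE 0.207, 95% interval -1.73 to -0.75). It ranked 159 of 22626 probe sets by limma p, and its size lay at percentile 98.2 of all differences.

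Irf7, the factor that amplifies type I interferon production, read 8.79, 9.18 and 8.75 in AKR F1 tumours, against 9.59, 10.77 and 9.93 in DBA F1 tumours. All DBA values were higher, with replicate 2 well above the other DBA arrays. The AKR mean was 8.91 ± 0.24 and the DBA mean 10.09 ± 0.61 (SD, n = 3 each). The difference of -1.19 (SE 0.306, 95% interval -1.91 to -0.46) lay at percentile 98.0 by size.

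Stat2, the STAT of ISGF3, has 2 probe sets. The brighter one read 7.08, 7.03 and 7.11 in AKR F1 tumours, against 7.52, 8.41 and 7.70 in DBA F1 tumours. The AKR values lay close together and all below the DBA values. The difference was -0.80 (SE 0.233, 95% interval -1.35 to -0.25). The other Stat2 probe set read 6.80, 7.05 and 6.55 in AKR F1 tumours, against 6.82, 8.33 and 7.25 in DBA F1 tumours. There the crosses overlapped, because DBA replicate 1 lay among the AKR values, and the difference was -0.67 (95% interval -1.56 to 0.22, limma adjusted p = 0.27). Without DBA replicate 2 the difference at the brighter Stat2 probe set was -0.53 (limma adjusted p = 0.146).

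Irf1, which mediates much of the interferon gamma response, read 9.78, 10.05 and 9.82 in AKR F1 tumours, against 9.70, 10.31 and 10.12 in DBA F1 tumours. The crosses overlapped, with the lowest of all 6 values on DBA replicate 1 and the highest on DBA replicate 2. Its difference of -0.16 (95% interval -0.59 to 0.28) turned to 0.067 after quantile normalization and to 0.048 after cyclic loess normalization. Irf2, the repressor, read 6.65, 6.13 and 6.69 in AKR F1 tumours, against 6.66, 6.69 and 6.55 in DBA F1 tumours. The single low value on AKR replicate 2 gave a difference of -0.14 (95% interval -0.56 to 0.27), which was 0.038 without that array. The name of the Irf2 probe set marks it as one that can match transcripts of more than 1 gene.

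Of the type I receptor chains, Ifnar1 read 7.83, 7.42 and 7.90 in AKR F1 tumours, against 7.81, 7.91 and 8.05 in DBA F1 tumours. Apart from the low AKR replicate 2, the values of both crosses lay between 7.81 and 8.05, and the difference was -0.21 (95% interval -0.59 to 0.18, limma adjusted p = 0.397). The difference of Ifnar1 was -0.059 without AKR replicate 2. Ifnar2, the high-affinity chain, read 9.85, 9.23 and 9.75 in AKR F1 tumours, against 10.08, 10.05 and 9.92 in DBA F1 tumours at its brighter probe set. The crosses did not overlap there, but the difference of -0.41 (95% interval -0.84 to 0.03, limma adjusted p = 0.209) rested in part on AKR replicate 2 and was -0.22 without it.

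The other Ifnar2 probe set went the opposite way, also without overlap but narrowly, with a lowest AKR value of 7.631 and a highest DBA value of 7.627. It read 7.63, 7.66 and 7.70 in AKR F1 tumours, against 7.56, 7.50 and 7.63 in DBA F1 tumours. Its difference was 0.10 (95% interval -0.15 to 0.36, limma adjusted p = 0.522). In the mouse, Ifnar2 is known to give rise to transmembrane and soluble receptor forms by alternative splicing, and the annotation used does not say which form each probe set reads. When the probe sets of a gene were averaged, the Ifnar2 difference was -0.15 (limma adjusted p = 0.396).

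Of the interferon gamma receptor chains, Ifngr1, which binds the ligand, read 9.40, 8.97 and 9.51 in AKR F1 tumours, against 9.60, 9.16 and 9.85 in DBA F1 tumours. Within each cross the lowest value lay on AKR replicate 2 and on DBA replicate 2, which share no more than an assigned number. The difference of -0.25 (95% interval -0.78 to 0.29, limma adjusted p = 0.462) was smaller than the spread within either cross. The difference of Ifngr1 was -0.084 without AKR replicate 2 and -0.062 after quantile normalization. The mean of the macrophage markers was lowest on the same arrays, with 9.76, 8.87 and 9.56 in AKR F1 tumours, against 9.79, 9.26 and 9.95 in DBA F1 tumours. So was the mean of the luminal markers, with 11.85, 11.47 and 11.90 in AKR, against 11.765, 11.40 and 11.82 in DBA F1 tumours. The mean of the endothelial markers was also lowest there, with 7.80, 7.38 and 7.55 against 7.83, 7.30 and 7.50. Whether the content of any of these cell types bears on Ifngr1 was not tested.

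Ifngr2, the signalling chain of that receptor, was the 1 gene of the 9 whose mean lay higher in AKR F1 tumours. Its brighter probe set read 9.31, 8.99 and 9.02 in AKR F1 tumours, against 8.73, 9.42 and 8.86 in DBA F1 tumours, so the highest and the lowest value both came from DBA arrays. The difference was 0.10 (95% interval -0.39 to 0.60, limma adjusted p = 0.741) and turned to -0.034 without DBA replicate 1. The other Ifngr2 probe set differed by 0.16 (95% interval -0.20 to 0.52). The gene table of GRCm38.p6 places Ifnar2, Il10rb, Ifnar1 and Ifngr2 next to each other, in this order, on chromosome 16. Il10rb, a receptor chain for interleukin 10 and interferon lambda, differed by -0.26 (limma adjusted p = 0.528), so none of these 4 neighbouring genes passed the test. Il10ra, the other chain of the interleukin 10 receptor, differed by 0.20.

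**Figure D2:**
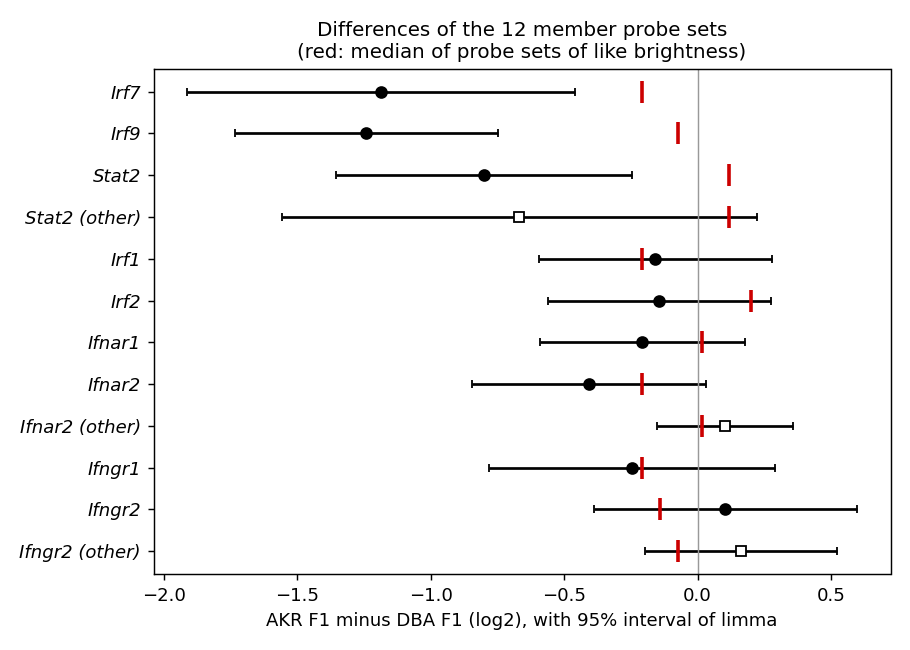
Difference of AKR F1 minus DBA F1 tumours (log2, horizontal axis) for each of the 12 member probe sets, with the 95% interval of limma as a bar; filled circles are brightest probe sets and open squares further ones. Red ticks give the median difference of all probe sets in the same brightness class (10 classes); the intervals of Irf7, Irf9 and the brighter Stat2 probe set lie wholly below 0 and below their red tick.

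The deposited values carry a difference between the crosses that varies with brightness, which bears on the small differences above. Sorted into 10 classes by mean level, the median difference of all probe sets was 0.23 in class 3 and -0.21 in class 10. Against the median of their own class, the differences were -1.17 for Irf9, -0.98 for Irf7 and -0.92 for the brighter Stat2 probe set. On the same basis the brighter Ifnar2 probe set stood at -0.20, Ifngr1 at -0.04 and Irf1 at 0.05. Ifnar1 stood at -0.22, Irf2 at -0.34 and the brighter Ifngr2 probe set at 0.25. At their brightest probe sets, 8 of the 9 genes lay higher in DBA F1 tumours with the values as deposited, against 45.2% of all genes; after quantile or cyclic loess normalization Irf1 lay higher in AKR. At these probe sets the crosses did not overlap for 4 of the 9 genes, all higher in DBA (15.2% of all genes), and for none with the higher values in AKR (23.2% of all genes).

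The tumours within the DBA F1 group differed among themselves, and Irf7, Irf9, Stat2 and Irf1 ranked them alike. Relative to the mean of the AKR arrays, Irf7 stood at 0.68 on DBA replicate 1, 1.86 on replicate 2 and 1.02 on replicate 3. Irf9 stood at 0.97, 1.60 and 1.16 on the same arrays, and Stat2 at 0.44, 1.33 and 0.62. The mean of 27 type I interferon target genes stood at 0.92, 1.98 and 1.47, so replicate 2 was the highest and replicate 1 the lowest in each of them. Replicate 2 was highest, replicate 3 next and replicate 1 lowest for 5 of the 9 member genes and for 25 of the 27 target genes, where 16.0% of all genes had that order. Among the receptor chains, Ifngr2 had it too, while Ifnar2 was highest on DBA replicate 1 and Ifnar1 and Ifngr1 on DBA replicate 3. Within the AKR group 7 of the 9 genes were lowest on replicate 2, where 49.8% of all genes were. Irf7 and Irf1 were highest there.

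**Figure D3:**
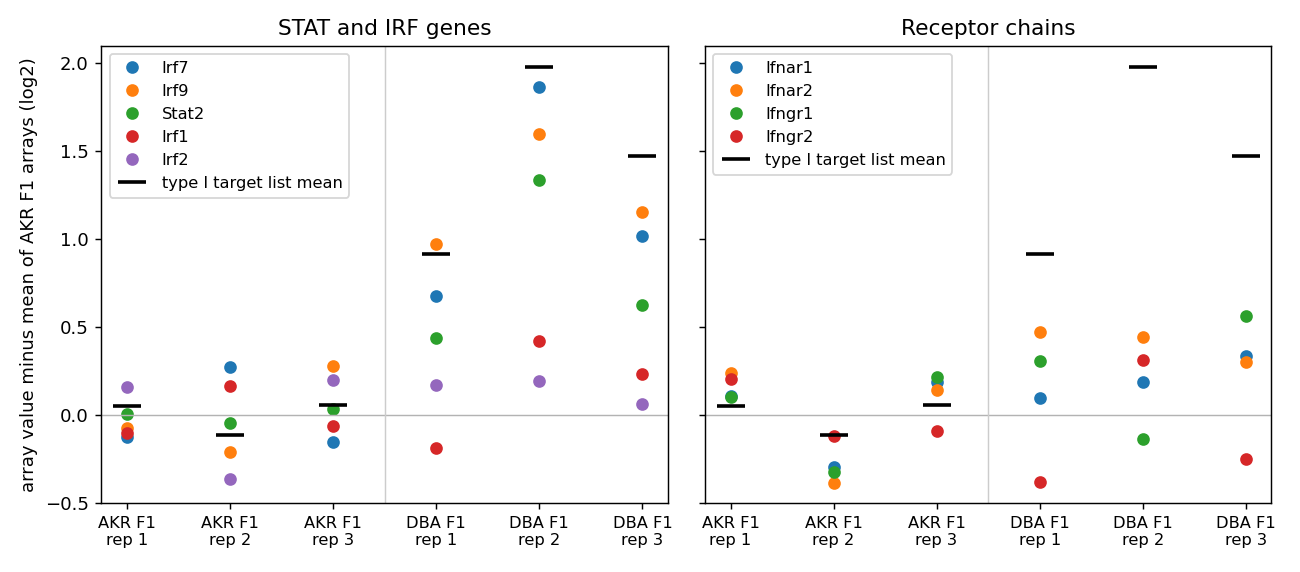
Value of each array minus the mean of the 3 AKR F1 arrays (log2, vertical axis) for the STAT and IRF genes (left panel) and the receptor chains (right panel), at the brightest probe set, with AKR F1 arrays left of DBA F1 arrays. Black dashes give the mean of 27 type I interferon target genes, which stands at 0.92, 1.98 and 1.47 on the DBA arrays; Irf7, Irf9 and Stat2 lie between 0.44 and 1.86 there, and the receptor chains between -0.38 and 0.56.

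No other IRF or STAT gene of the pathway passed the test by limma. At its brightest probe set 1 of these 9, Irf5, had an unadjusted limma p under 0.05. Irf5 was higher in AKR F1 tumours, where 12.6% of all genes had such a p in that direction. Of the 4 other IRF genes measured, 3 lay higher in AKR F1 tumours, as did 6787 of all 12393 genes. Irf5, a factor of myeloid cells, read 7.64, 7.90 and 7.46 in AKR, against 7.14, 7.11 and 7.34 in DBA F1 tumours. Its difference was 0.47 (limma adjusted p = 0.139). Irf4, a lymphocyte factor, differed by 0.39, Irf3, the constitutive partner of Irf7, by 0.10 and Irf8, a myeloid factor, by -0.33, with limma adjusted p from 0.238 to 0.63. The 5 other STAT genes measured had differences of 0.50 for Stat3, 0.41 for Stat5a, 0.04 for Stat4, -0.12 for Stat5b and -0.28 for Stat6. The dimmer probe sets of Stat5b and Stat6 (0.18) had the opposite sign. That of Stat5b read 8.60, 8.76 and 8.38 in AKR, against 7.59, 7.61 and 7.37 in DBA F1 tumours, a difference of 1.05 (limma adjusted p = 0.0661) without overlap of the crosses. Dimmer probe sets of Stat5a (0.96, limma adjusted p = 0.145) and Irf3 (0.36, 0.138) also had an unadjusted p under 0.05, higher in AKR F1 tumours.

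Among the 4 Janus kinases, Jak1, which serves both interferon receptors, read 10.14, 10.02 and 10.35 in AKR, against 11.27, 10.91 and 11.26 in DBA F1 tumours. The crosses did not overlap, and the difference of -0.98 (SE 0.155) had a limma adjusted p of 0.0774. The further Jak1 probe sets differed by -0.34 and -0.48. Jak3, the kinase of the common gamma chain receptors, lay the other way at 0.82 (limma adjusted p = 0.146), and Tyk2, which pairs with IFNAR1, at 0.27. Jak2, which pairs with IFNGR2, differed by -0.09 at its brightest probe set and by -0.74 (limma adjusted p = 0.0837) at a dimmer one. No Janus kinase passed. At their brightest probe sets, Jak1 was higher in DBA F1 tumours and Jak3 higher in AKR F1 tumours at an unadjusted limma p under 0.05, where 12.6% of all genes lay in each direction.

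The 11 feedback inhibitors had a median difference of -0.08, and none passed by limma. At an unadjusted limma p under 0.05, Usp18 and Ptpn11 were higher in DBA and Pias3 in AKR F1 tumours at their brightest probe sets. In each direction 12.6% of all genes lay under it. A dimmer probe set of Pias1 (-0.51, higher in DBA) and one of Ptpn11 (0.67, higher in AKR without overlap) also lay under it. Usp18, a protease that blocks signalling at IFNAR2, stood far from the others at -2.72 (limma adjusted p = 0.0661). At the brightest probe sets, the next largest differences were 0.52 for Pias3, a STAT inhibitor, -0.52 for the phosphatase gene Ptpn11 and 0.49 for Socs1, an inhibitor of Janus kinases. The further 7 lay between -0.30 (Pias1) and 0.26 (Pias4). These were Socs3 (-0.08), Ptpn1 (-0.24), Ptpn2 (0.03), Ptpn6 (0.07) and Pias2 (-0.25) besides the 2 named. Dimmer probe sets of Socs3 differed by -0.85 (limma adjusted p = 0.216) and -0.24, both with overlap of the crosses. The dimmer probe sets of Ptpn11 (0.27, and 0.67 with limma adjusted p = 0.105), Ptpn1 (0.11), Ptpn2 (-0.04 to -0.56) and Ptpn6 (-0.04) had the opposite sign.

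Of the kinases and adaptors that lead to IRF activation, 8 were measured and none passed by limma. At its brightest probe set 1, Irak1, had an unadjusted limma p under 0.05. Irak1 was higher in AKR F1 tumours, where 12.6% of all genes had such a p in that direction. The smallest p among the 8 belonged to Irak1 (0.40), Tbk1, the kinase that phosphorylates Irf3 and Irf7 (-0.47), Myd88 (-0.30) and Ikbkb (-0.20). A dimmer Tbk1 probe set differed by -0.81 without overlap (limma adjusted p = 0.145) and one of Irak1 by 0.58 (0.126), while those of Ikbkb stood at -0.03, 0.27 and 0.26. Interferon ligands gave low values, and their near-identical sequences can share probes. Of 10 measured ligand genes 8 lay higher in AKR F1 tumours, as did 6787 of all 12393 genes. None of the ligand genes passed by limma. At an unadjusted limma p under 0.05 there were 2, Ifna1 and Ifna11, both higher in AKR, where 12.6% of all genes lay in that direction. The ligand differences were 0.49 for Ifna1, 0.31 for Ifna11, 0.41 for Ifnab and 0.28 for Ifna2. Their list median of 0.29 can be set beside the class medians of 0.12 to 0.23 for the dimmest 4 of the 10 brightness classes. Ifng, the ligand of the gamma receptor, differed by 0.05 and was named after its value was seen.

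Of 27 measured type I interferon targets, Ifi27l2a and Oas1a passed an adjusted limma p of 0.05, both higher in DBA F1 tumours (0.0242% of all genes passed in that direction and 0.0565% in either). At an unadjusted limma p under 0.05, 23 of the 27 were higher in DBA, against 12.6% of all genes. The target lists were chosen with earlier results of these data known, so their counts are not independent of these data. The median difference of the 27 was -1.40, against 0.05 over all genes and -0.25 over the 9 members. The 4 with the smallest p were Ifi27l2a (-2.45), the antiviral genes Oas1a (-2.15) and Oasl2 (-3.09), and Usp18. Of 18 interferon gamma targets none passed, 12 were higher in DBA and 1 in AKR at an unadjusted limma p under 0.05, and the median was -1.29. The interferon gamma targets with the smallest p were the GTPase genes Iigp1 (-3.18), Gbp7 (-1.60) and Igtp (-1.75) and the immunoproteasome gene Psmb8 (-1.69). A dimmer probe set of Gbp7 differed by 0.10. Irf7, Irf9 and Stat2 lay within the range of the type I targets (-3.09 to -0.45). Ifnar2 lay just outside it at -0.41 at its brighter probe set, while its other probe set differed by 0.10. Under the alternative settings Ifnar2 ran from -0.53 to -0.15, and the range of the targets was not recomputed for these. The interferon gamma targets ranged from -3.18 to 0.41, which takes in all 9 members.

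**Figure D4:**
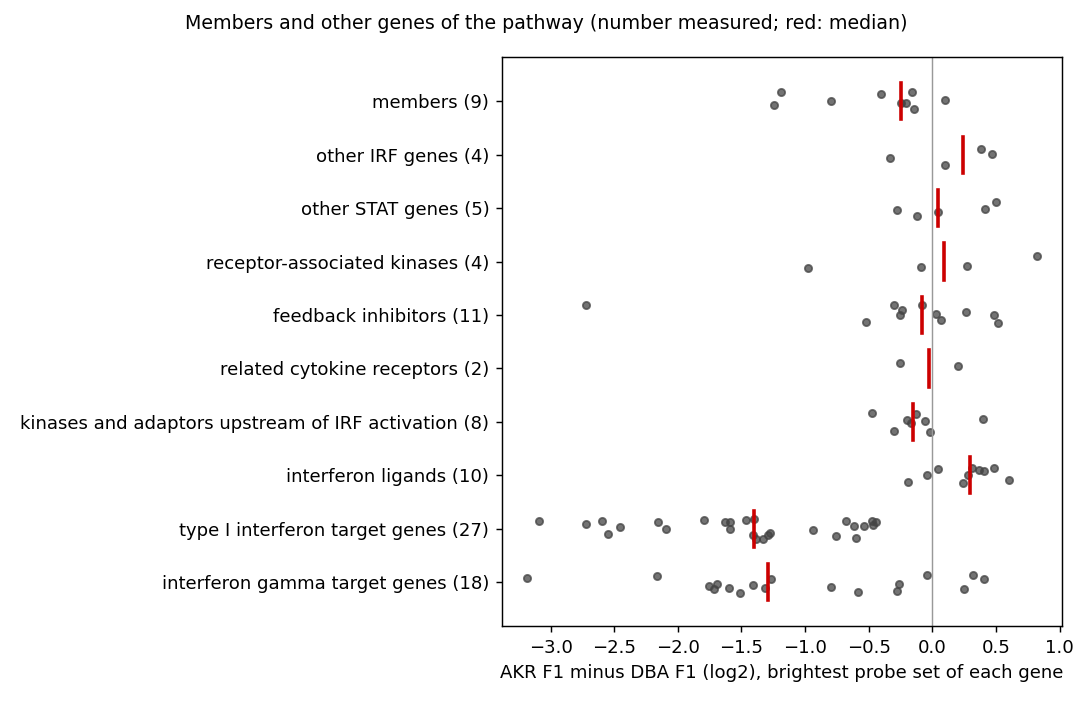
Difference of AKR F1 minus DBA F1 tumours (log2, horizontal axis) for each gene at its brightest probe set, in 10 lists named on the vertical axis with the number of genes measured; red bars are list medians. The medians of the type I and interferon gamma target lists are -1.40 and -1.29, and those of the other lists lie between -0.25 and 0.29.

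The genes whose pattern over the 6 arrays was most like that of a member were found by Pearson correlation among 12393 genes at their brightest probe sets, as a description over 6 arrays in 2 crosses. For Irf7 they were the antiviral genes Rsad2 (r = 0.995) and Oas2 (0.990) and, between them, Plek2 (0.992). For Stat2 they were Bnip3, a mitophagy gene (0.9996), Pfkfb3, which promotes glycolysis (0.995), and Parp3 (0.992). Irf9 was most like Gnas, a G protein subunit gene (0.996), Dnajc5 (0.996) and Phyh, an enzyme gene of peroxisomal lipid breakdown (0.995). Irf1 was nearest to Pmm1 (0.996), Gli2 (0.992) and S100b (0.987), and Irf2 to Slc37a4 (0.996), Cpne1 (0.996) and Ap1g1 (0.995). The nearest genes of the receptor chains were Mtpn (0.997), Cd151 (0.995) and Tspan4 (0.993) for Ifnar1, and Smim19 (0.998), Ogfod3 (0.997) and Diablo (0.996) for Ifnar2. They were Rps29 (0.999), Synj2bp (0.993) and Ttc8 (0.991) for Ifngr1, and Dusp15, Smox and Flot1 (0.981 each) for Ifngr2.

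Of 13 luminal epithelial markers, Epcam and Krt8 were at 12.1 or above on all 6 arrays, whereas Foxa1 lay between 5.98 and 7.63. The mean of the 13 ran from 11.5 to 11.9 in AKR and from 11.4 to 11.8 in DBA F1 tumours. No gene of the other cell type lists passed by limma. At an unadjusted p under 0.05 there were 4 T and NK cell genes, higher in AKR, where 12.6% of all genes lay in each direction. There were also 3 B and plasma cell genes, 2 higher in AKR and 1 higher in DBA. The median differences of their brightness classes ran from -0.21 to 0.23 for the 4 T and NK cell genes. That median was 0.23 for the 2 B and plasma cell genes higher in AKR. The B and plasma cell gene higher in DBA, Pou2af1, is a coactivator of B cells. It read 5.005, 5.23 and 5.10 in AKR, against 6.65, 10.09 and 8.27 in DBA F1 tumours (difference -3.23, limma adjusted p = 0.103). Its DBA arrays stood in the same order as for Irf7, an order that 16.0% of all genes had. The mean of the 8 B and plasma cell genes was instead highest on DBA replicate 1, with 6.81, 6.34 and 6.40 on the DBA arrays. The luminal gene Cldn3 (1.0005, limma adjusted p = 0.0857) and the endothelial genes Plvap (0.47) and Sox18 (0.53) were higher in AKR and the endothelial gene Emcn (-0.37) in DBA F1 tumours at an unadjusted p under 0.05. These 5 genes were named after their values were seen. There was no such macrophage or plasmacytoid dendritic cell gene. Of the measured markers, 8 of 10 macrophage, 2 of 9 T and NK cell, 4 of 8 B and plasma cell and 0 of 4 plasmacytoid dendritic cell genes lay higher in DBA F1 tumours, against 45.2% of all genes. The mean of 9 skeletal muscle genes was 11.4 on DBA replicate 1 and between 6.17 and 9.57 on the other arrays, and that of 5 adipocyte genes was 8.67 there and at most 6.98 elsewhere. In whole tumours, fewer cells of a type and less RNA per cell cannot be told apart, and the part of cell content in these differences was not tested. Without DBA replicate 1 the differences were -1.38 for Irf9 (limma adjusted p = 0.0515), -1.44 for Irf7 (0.0794) and -0.98 for Stat2 (0.107).

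**Figure D5:**
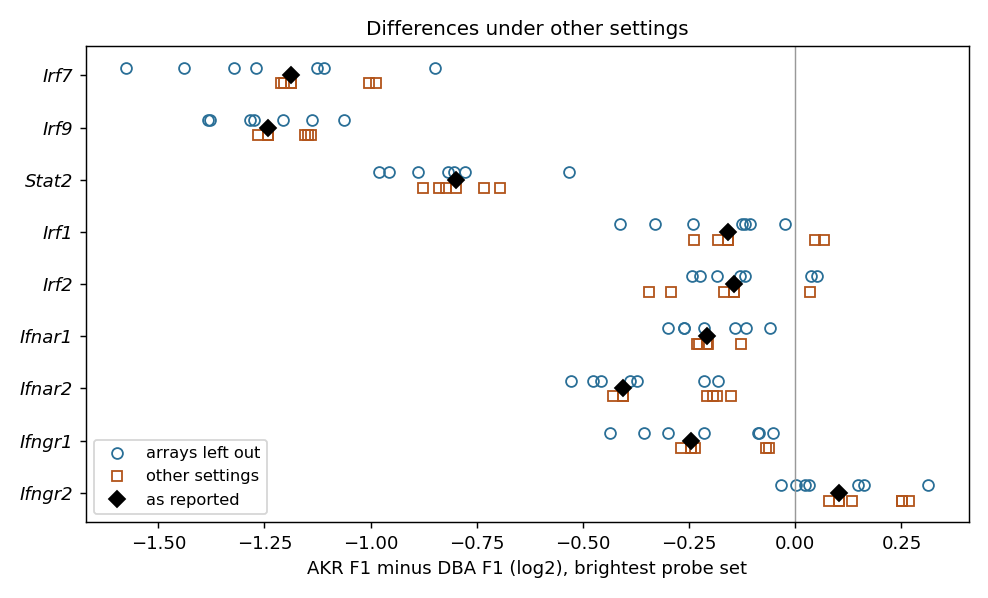
Difference of AKR F1 minus DBA F1 tumours (log2, horizontal axis) of each member gene as reported (black diamonds), with 1 or 2 arrays left out (blue circles) and under the other settings (orange squares). Irf7, Irf9 and Stat2 stay between -1.58 and -0.53, whereas Irf1, Irf2 and Ifngr2 have points on both sides of 0.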

How the data were processed

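Total RNA of snap-frozen tumours was extracted with Trizol and biotin-labelled for Affymetrix arrays, per the labels' protocols. The deposited table holds log2 values of 22690 probe sets on 6 arrays. Their range (3.65 to 14.73, array medians 7.52 to 7.57) showed that the deposited values are on a log2 scale. MAS5 and RMA are named per the submitters' processing notes, without saying which of them made these values. No detection calls were used, so dim values can lie at background and their differences can be compressed. Strain sequence variants under a probe and RNA differences cannot be told apart.

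The 64 control probe sets were left out. Of the other 22626, 20380 had 1 gene symbol in the platform annotation, 691 several and 1555 none. A gene was represented by its brightest probe set. AKR and DBA F1 tumours (source names in the labels) were compared in R 4.3.3 with limma 3.58.1 (two-sided, Benjamini-Hochberg, adjusted p 0.05), which was tested on simulated data. Differences are AKR minus DBA, errors after ± are SDs over 3 arrays, and this number of arrays limits the precision. Tables and figures were made with Python 3.11.15, pandas 2.3.3 and matplotlib 3.10.9.

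The members and the gene lists were chosen with earlier results of these data known. Named were all members, all genes of the small IRF, STAT, kinase and inhibitor lists, the 4 genes with the smallest p of each other pathway list, and the 3 genes most like each member. Cell type markers are given by list.

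The alternatives were quantile and cyclic loess normalization, median centring, brighter probe sets only, a trended robust prior, array weights, averaging the probe sets of each gene, leaving out arrays, and calling at an adjusted p of 0.10.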

Additional observations from a re-analysis of the deposited data

How the results depend on the processing

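Irf7, Irf9, Stat2, Ifnar1, Ifnar2 and Ifngr1 kept the sign of their difference under every alternative run. Irf9 ranged from -1.38 to -1.06, Irf7 from -1.58 to -0.85 and Stat2 from -0.98 to -0.53. With array weights, 3 member probe sets were called, Irf9 (-1.15), Irf7 (-1.20) and Stat2 (-0.70), but so were 3712 probe sets in all. Without AKR replicate 2 and DBA replicate 1 together, 1 was called, Irf9 (-1.27), among 657 probe sets. At an adjusted p of 0.10 it was also 1, among 810. Leaving out single arrays gave 0 called members and from 1 to 263 called probe sets. The total was 34 with cyclic loess, 36 with quantile normalization and 102 among brighter probe sets. Irf1 turned to 0.048 with cyclic loess and 0.067 with quantile normalization. Irf2 turned to 0.035 with array weights and 0.052 without both arrays, and ranged from -0.24 to 0.038 (without AKR replicate 2) when single arrays were left out. Ifngr2 ranged from -0.034 (without DBA replicate 1) to 0.31 in the same way. Member probe sets without overlap of the crosses, 5 as deposited, were 5 to 8 without single arrays (8 without DBA replicate 1), 8 without both arrays and 3 after quantile normalization. Leaving out arrays can only keep or raise such a count, whatever the probe sets. The share over all probe sets, 39.2% as deposited, was not computed for these settings, so these counts describe nothing particular to the members. The causes were not tested. The prior and the weights do not enter the count without overlap. Stat2 and Irf2 were not among the brighter probe sets. No paired analysis was possible because the labels give no replicate numbers.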
